A study of Mus musculus with 9 samples.

Results

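AP-1 is a family of dimeric basic leucine zipper (bZIP) transcription factors. Members of the FOS, JUN, ATF and BATF groups pair through their leucine zippers and bind a short palindrome in promoters and enhancers. FOS proteins need a JUN partner, whereas JUN proteins can also pair with each other. In macrophages, LPS induces several of these genes within minutes as immediate-early genes, and their mRNAs are short-lived. TTP (gene Zfp36) is an RNA-binding protein that recognizes AU-rich elements in 3′UTRs and recruits the mRNA decay machinery, and its phosphorylation by MK2 at 2 serines restrains this activity.

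Ribosome-protected fragments of the AP-1 genes were analyzed in RiboSeq data from macrophages with and without TTP. The genes were chosen by symbol, namely Fos, Fosb, Fosl1, Fosl2, Jun, Junb, Jund, Atf3 and Batf. The table of fitted values held 8 of these 9 genes among 16921 gene identifiers, and all 8 belonged to the 10103 genes that were kept because their fitted mean reached 10. Batf was not listed in the table, so that it was not analysed here.

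All 9 libraries came from TTP-deficient BMDMs that had been immortalized with the human oncogenes hcmyc and hRasG12V and selected for CD11b and F4/80. The cells carried a doxycycline-inducible retroviral vector for GFP alone, GFP-TTP or GFP-TTP-AA, in which the MK2 sites of TTP are mutated (S52A, S178A), and each of these 3 lines gave 3 libraries. All cells received doxycycline for 6 h at 1 μg/ml and LPS for 1 h at 1 μg/ml, so that the data hold no unstimulated state. Each condition was a separately transduced and sorted cell line, hence the transgene and any other difference between the lines cannot be told apart. RiboSeq counts fragments from a bulk of cells. A lower level could thus reflect a smaller share of expressing cells, less mRNA per cell or less translation per mRNA. These cannot be told apart here.

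The values are not observed counts but fits of the authors' DESeq2 model, 1 per gene and library, and "level" below means such a fit after division by the library's size factor. Size factors ranged from 0.413 to 2.13, and the sum of all fits in a library from 2570292 to 12804501. The log2 level of each gene was the sum of a term for the line and a term for the library number, with nothing left over. Values of single libraries therefore show these terms and not the scatter of a measurement, and the replicate error comes from the standard error (SE) that the authors' comparison tables give. Fold changes were shrunken towards 0 by that model, and unshrunken values were not used here. Zfp36 itself had levels of 438 to 500 in the GFP libraries, 884 to 1009 in the GFP-TTP libraries and 1465 to 1673 in the GFP-TTP-AA libraries. It was thus lowest in the line without a TTP transgene, but this line, labelled TTP-deficient, still had a level of 459 on the gene. The table does not show where in the gene these footprints lie, so that the level does not check the deletion. Zfp36 differed between the GFP-TTP-AA and GFP-TTP lines by a log2 fold change of 0.73 (SE 0.250, adjusted p = 0.0385), so that these lines differed in the amount of TTP footprints as well as in its sequence. Of 9 macrophage markers, 8 had a fitted mean of at least 10, and the marker below it was Mertk with levels of 4.65 to 5.44. The 9 markers together had a level of 93928 in the GFP line, 74112 in the GFP-TTP line and 106772 in the GFP-TTP-AA line. Most of this sum was Lyz2, with 64035, 45986 and 71418 in these lines. The gene for F4/80 stood at 3663, 2290 and 5344. Itgam, the gene for CD11b, stood at 2968, 3187 and 3191, and Cd14 at 9538, 10287 and 11923. Csf1r stood at 6886, 6129 and 7742, and Fcgr1 at 129, 67.1 and 110. Like Lyz2 and the gene for F4/80, the markers Csf1r, Fcgr1, Cd68, Tlr4 and Mertk were lowest in the GFP-TTP line. Itgam and Cd14 were lowest in the GFP line instead. Most markers thus shared their lowest line, but not all. Whether these marker differences had a part in the values below was not tested. Markers of T cells, B cells, neutrophils, fibroblasts and epithelial cells were not listed or had levels of at most 0.760.

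As TTP acts through AU-rich elements, the 3′UTRs of the AP-1 mRNAs were searched for the pentamer ATTTA, the heptamer TATTTAT and the nonamer TTATTTATT on the sense strand, where each longer motif contains the shorter ones. All 8 genes matched a GENCODE vM21 entry on GRCm38, the build of the files. The pentamer occurred in 8 of 8 members, the heptamer in 7 and the nonamer in 2. Among 9969 kept genes with an annotated 3′UTR, 65.7% held the pentamer, 27.4% the heptamer and 7.07% the nonamer. One window is shown for each member with a heptamer, since this is the class of element that TTP binds. Windows hold the motif in capitals and up to 9 bases on each side, 5′ to 3′ as in the mRNA with T for U.
Fos: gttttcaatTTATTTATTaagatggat
Fosb: acccccagcTATTTATccctttcct
Fosl1: ggcagctgcTATTTATtttcctaaa
Fosl2: tttattttaTTATTTATTttaaatgtt
Jun: gcttgtgcaTATTTATaatagcgtt
Jund: attccgcccTATTTATgtttctact
Atf3: aatattactTATTTATcccagtatt

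The Fos window lay at chr12:85477104-85477130 on the plus strand, with its motif 655 nucleotides after the stop codon of an 815-nucleotide 3′UTR. Fos also held a second heptamer at nucleotide 680, and 4 pentamers in all. The Fosb window lay at chr7:19303328-19303352 on the minus strand, at nucleotide 1498 of 2145, and held the sole pentamer of that 3′UTR. The Fosl1 window lay at chr19:5455869-5455893 on the plus strand, at nucleotide 570 of 638, and again held the sole pentamer. Fos and Fosl1 both carry a heptamer, and their log2 fold changes against GFP, given below, had opposite signs, with Fosl1 alone past the threshold. The difference between these genes was not tested, nor was whether the motifs went with the fold changes. The Fosl2 window lay at chr5:32156872-32156898 on the plus strand, at nucleotide 3692 of 4653, and Fosl2 had the most motifs, with 8 pentamers and 3 heptamers. The Jun window lay at chr4:95049081-95049105 on the minus strand, at nucleotide 1171 of 1233. The Jund window lay at chr8:70700361-70700385 on the plus strand, at nucleotide 287 of 533. The Atf3 window lay at chr1:191170340-191170364 on the minus strand, at nucleotide 1127 of 1186. Junb, with a 3′UTR of 485 nucleotides on chromosome 8, held 2 pentamers and no heptamer.

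Long 3′UTRs hold more of any motif, and the shares depend on length. Among kept genes with a 3′UTR within 20% of the length of that of the member, a heptamer was found in 21.1% for Fos, 18.6% for Fosl1, 30.0% for Jun, 30.4% for Atf3, 15.2% for Jund, 39.2% for Fosb and 61.4% for Fosl2. The nonamer of Fos had a share of 5.47% among genes of like length and that of Fosl2 a share of 20.0%. A match describes the sequence and does not show that TTP bound there.

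**Figure D1:**
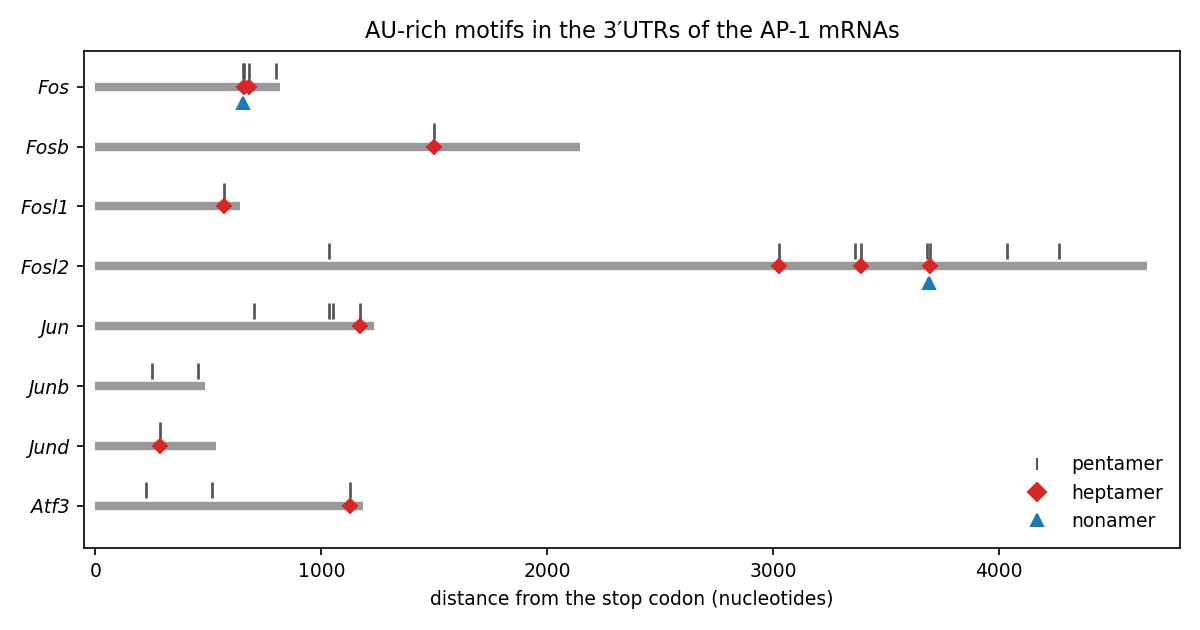
3′UTRs of the 8 AP-1 mRNAs (grey bars, one per row) drawn to scale from the stop codon, with the x axis in nucleotides. Dark ticks mark pentamers, red diamonds heptamers and blue triangles nonamers; Fosl2 has the longest 3′UTR with 4653 nucleotides, and Junb has no heptamer.

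To compare members with each other, levels were divided by the coding length of each gene. Per kilobase of coding sequence in GFP cells, Junb had the highest level with 3845, followed by Atf3 with 2350 and Jun with 1315. Then came Fos with 433, Fosl2 with 343, Jund with 270, Fosl1 with 223 and Fosb with 31.9. In GFP-TTP cells, Fosl1 stood at 390, just above Fos with 376. In GFP-TTP-AA cells the level of Fosl1 was 421, above Fosl2 with 363 and Fos with 282. The JUN genes together gave 5430, 4827 and 5047 per kilobase in GFP, GFP-TTP and GFP-TTP-AA cells. The FOS genes together gave 1031, 1133 and 1090 per kilobase in these lines, hence a smaller pool than the JUN genes in all 3 lines. Within the FOS genes the make-up differed between lines. Fos made up 42.0%, 33.2% and 25.9% of the FOS pool in GFP, GFP-TTP and GFP-TTP-AA cells. Fosl1 made up 21.7%, 34.4% and 38.7% of that pool. The share of Fosl2 was 33.2%, 29.7% and 33.3%, and that of Fosb was at most 3.09%. Junb was the main JUN gene with 70.8%, 72.4% and 76.0% of the JUN pool, and Jun made up 24.2%, 22.4% and 18.7%. These shares are sums of fitted levels and were not tested.

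The level of each gene was then compared between the 3 lines, which asks whether TTP or its phosphorylation mutant changes the footprints on AP-1 mRNAs. The 3 comparisons share libraries and are not independent. Fosl1, which encodes the FOS protein FRA-1, rose in both TTP lines against GFP and was the sole member to pass the test. In GFP-TTP against GFP 1 of 8 members was past the threshold (Fosl1, higher), against a background of 2.09% of 9938 genes tested (0.805% higher and 1.29% lower). In GFP-TTP-AA against GFP it was again 1 of 8 (Fosl1, higher), against 3.03% of 10103 genes (1.76% higher and 1.27% lower). In GFP-TTP-AA against GFP-TTP 0 of 8 members passed the Wald test built on the authors' DESeq2 standard errors, against 10.2% of 10103 genes (5.66% higher and 4.58% lower). At an unadjusted p under 0.05 the counts were 1, 3 and 0 of 8, and the shares of all genes were 11.3%, 14.2% and 22.1%. The median log2 fold change of the 8 members was -0.07, -0.03 and -0.04 in these comparisons, and that of all genes was 0.00, 0.01 and 0.01. Log2 fold changes lay above 0 for 2, 2 and 4 of the 8 members.

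**Figure D2:**
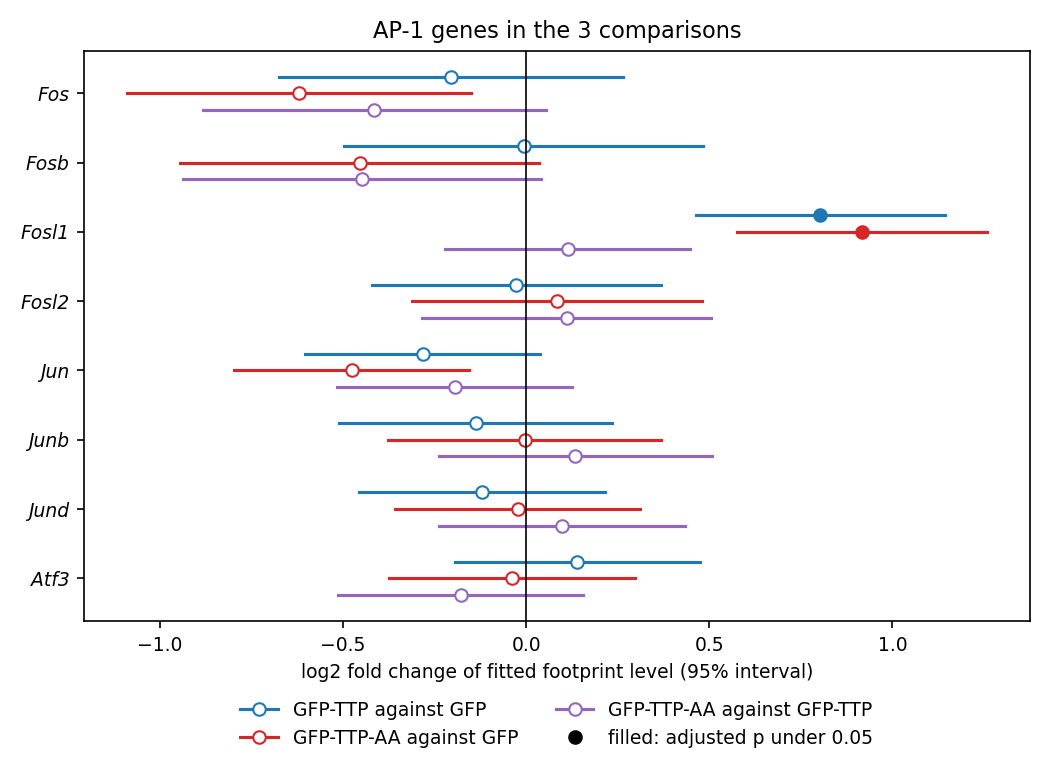
Log2 fold change of the fitted footprint level (x axis) of the 8 AP-1 genes (rows) in the 3 comparisons, with bars for the 95% interval from the authors' SE. Filled points passed an adjusted p of 0.05; these are Fosl1 in GFP-TTP against GFP (0.80) and in GFP-TTP-AA against GFP (0.92).

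Fosl1 (ENSMUSG00000024912, chr19:5447547-5455946, plus strand) had levels of 141, 189 and 229 in GFP libraries 1, 2 and 3. In GFP-TTP libraries the levels were 247, 330 and 399, and in GFP-TTP-AA libraries 267, 357 and 432. In these fitted values every GFP library lay below every library of the other lines, while the ranges of the TTP lines overlapped. Both follow from the sizes of the line and number terms and are no evidence beyond the test. The log2 fold change was 0.80 in GFP-TTP against GFP (SE 0.174, 95% interval 0.46 to 1.14, 1.75-fold, adjusted p = 0.000606). It was 0.92 in GFP-TTP-AA against GFP (SE 0.174, 95% interval 0.58 to 1.26, 1.89-fold, adjusted p = 3.28e-05). Of the genes tested in these comparisons, 1.13% and 0.723% had a change at least as large in either direction. Between the TTP lines Fosl1 differed by 0.11 (95% interval -0.22 to 0.45, Wald test, adjusted p = 0.763). Value and interval are those of the shrunken fold change, so that they do not bound the unshrunken difference.

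Genes on chromosome 19 as a whole were shifted in the same direction, with a median log2 fold change of 0.17 over 357 genes in GFP-TTP against GFP and of 0.11 over 364 genes in GFP-TTP-AA against GFP. With the median of the chromosome subtracted, Fosl1 stood at 0.63 (adjusted p = 0.0232) and 0.81 (adjusted p = 0.000528). Fosl1 shares exon sequence with Ccdc85b on the opposite strand, and whether the counting used strand is not given in the sources used here. Ccdc85b had levels of 29.0, 39.1 and 34.1 in GFP, GFP-TTP and GFP-TTP-AA cells, with log2 fold changes against GFP of 0.43 (adjusted p = 0.541) and 0.23 (adjusted p = 0.778). Its level was thus below that of Fosl1 in each line.

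Fos (ENSMUSG00000021250, chr12:85473890-85477273, plus strand), the founding FOS gene, had its highest level in GFP and its lowest in GFP-TTP-AA cells. Libraries 1, 2 and 3 gave 672, 553 and 325 in GFP, 583, 479 and 281 in GFP-TTP and 437, 360 and 211 in GFP-TTP-AA cells. The ranges of the 3 lines overlapped, as the fitted term for the library number was larger than that for the line. The log2 fold change was -0.62 in GFP-TTP-AA against GFP (SE 0.239, 95% interval -1.09 to -0.15), which gave an unadjusted p of 0.00956 but did not pass after adjustment over all genes (DESeq2-based Wald test, adjusted p = 0.145). It was -0.21 in GFP-TTP against GFP (95% interval -0.67 to 0.26, adjusted p = 0.830) and -0.41 in GFP-TTP-AA against GFP-TTP (95% interval -0.88 to 0.05, adjusted p = 0.303). The order of the lines for Fos was therefore GFP, GFP-TTP and GFP-TTP-AA, but none of the neighbours differed beyond the error. Genes on chromosome 12, which holds Fos, had a median log2 fold change of 0.12 over 349 genes in GFP-TTP-AA against GFP. With this median subtracted, Fos stood at -0.74 (Wald test, adjusted p = 0.0617), which did not pass either. In GFP-TTP-AA against GFP-TTP the same step gave -0.53 (Wald test, adjusted p = 0.168).

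Fosb (ENSMUSG00000003545, chr7:19302696-19310051, minus strand), a close relative of Fos that is also induced early, had the fewest footprints, with levels of 17.6 to 45.8 over the 9 libraries. Its group levels were 32.3, 32.2 and 23.6. The log2 fold changes of -0.45 in GFP-TTP-AA against GFP (SE 0.250, adjusted p = 0.412) and -0.45 against GFP-TTP (SE 0.250, adjusted p = 0.283) did not pass the test. The SE of Fosb was close to the largest in the table, 0.250, and the 95% intervals of these differences reached from -0.94 to 0.04. Fosl2 (ENSMUSG00000029135, chr5:32135801-32157842, plus strand), which encodes FRA-2, had levels of 285 to 405 over all libraries. Its log2 fold changes were -0.03, 0.08 and 0.11, with 95% intervals that together reached from -0.42 to 0.51. The related gene Fosl1 thus passed the test against GFP, whereas Fosl2 did not, but the difference between the 2 genes was not tested.

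Among the JUN genes, Jun (ENSMUSG00000052684, chr4:95049034-95052222, minus strand), which encodes the transcriptional activator c-JUN, had the same order of lines as Fos. Its levels in libraries 1, 2 and 3 were 2047, 1648 and 678 in GFP, 1684, 1356 and 557 in GFP-TTP and 1472, 1184 and 487 in GFP-TTP-AA cells. Library number 3 was low in each line, and the ranges of the lines overlapped. The log2 fold change was -0.48 in GFP-TTP-AA against GFP (SE 0.164, 95% interval -0.80 to -0.16), with an unadjusted p of 0.00360 and an adjusted p of 0.0833 that missed the threshold. It was -0.28 in GFP-TTP against GFP (95% interval -0.60 to 0.04, adjusted p = 0.540) and -0.19 between the TTP lines (95% interval -0.52 to 0.13, adjusted p = 0.530). A change of at least the size seen for Jun in GFP-TTP-AA against GFP was found in 6.93% of the genes tested, and one of the size seen for Fos in 2.85%.

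Junb (ENSMUSG00000052837, chr8:84974484-84978718, minus strand), a JUN protein that can restrain c-JUN, was the most abundant member and ranked 205 by mean level among all genes. Its levels were 3799 to 4108 in GFP, 3455 to 3736 in GFP-TTP and 3791 to 4100 in GFP-TTP-AA libraries. The log2 fold changes were -0.14, 0.00 and 0.13, and their 95% intervals together spanned -0.51 to 0.51. Junb shares exon sequence with Prdx2 on the opposite strand, which had a fitted mean of 1390 against 3847 for Junb and log2 fold changes of -0.02, 0.19 and 0.21 (adjusted p from 0.344 to 0.976). Jund (ENSMUSG00000071076, chr8:70698949-70700616, plus strand), the JUN gene that is expressed without stimulation in many cells, had group levels of 277, 255 and 272. Its log2 fold changes of -0.12, -0.02 and 0.10 did not pass the test, with 95% intervals between -0.46 and 0.43. Atf3 (ENSMUSG00000026628, chr1:191170296-191218039, minus strand), a stress-induced factor that represses cytokine genes in LPS-treated macrophages, had levels of 995 to 1617 over the libraries. Its log2 fold changes were 0.14, -0.04 and -0.18, with 95% intervals between -0.51 and 0.48.

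**Figure D3:**
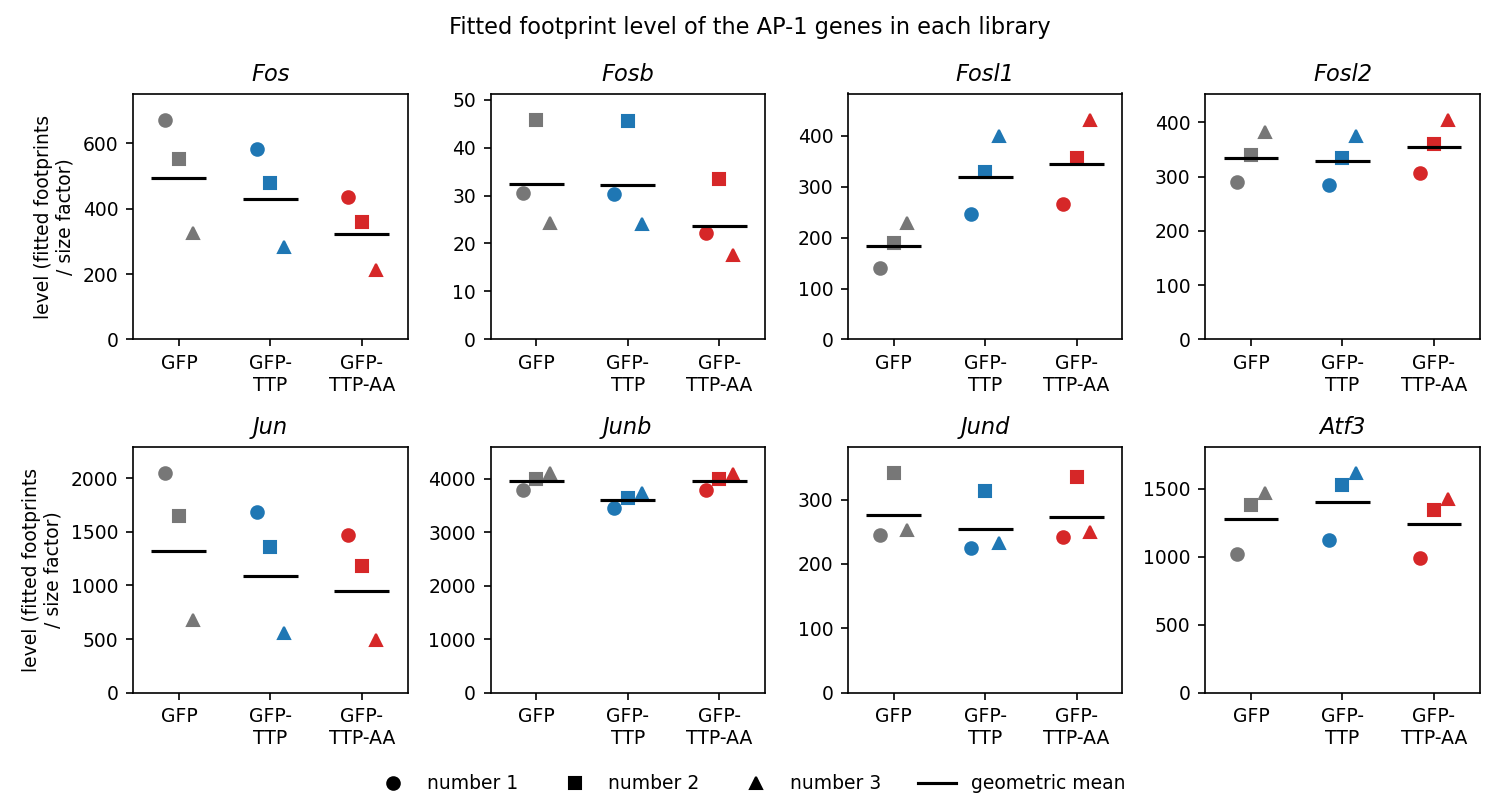
Fitted footprint level divided by the size factor (y axis, linear from 0, own scale per gene) of the 8 AP-1 genes in each library of the 3 lines. Symbols give the library number and black lines the geometric mean. GFP libraries of Fosl1 lie between 141 and 229, below all libraries of the TTP lines. The libraries of Jun with number 3 are the lowest of each line. Both patterns follow from the fitted terms for line and number.

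In the fitted values the library number went with a larger difference than the line for most members. The line terms are shrunken, and how far the number terms are shrunken was not assessed. The spans compared below may therefore be shrunken by unlike amounts. The authors' model had a term for the library date, and in the fitted values this term followed the number, so that it has the same size in every line by construction. Jun was 3.02-fold lower in libraries with number 3 than in those with number 1, a span of 1.60 on the log2 scale that only 0.158% of kept genes reached or passed. The mean level of Jun over the 3 lines was 1718, 1383 and 569 at numbers 1, 2 and 3. Fos was lowest at number 3 as well, with 555, 457 and 268 (span 1.05, reached by 1.07% of kept genes). Fosb stood at 27.4, 41.1 and 21.7 (span 0.92, reached by 1.94%). Fos, Fosb, Jun and Junb are textbook immediate-early genes, and of these Junb had the smallest span with 0.11.

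Fosl1 went the other way, with 210, 281 and 340 at numbers 1, 2 and 3 (span 0.69). Atf3 (span 0.52), Fosl2 (0.40) and Junb were also highest at number 3, so that 3 of 8 members had their lowest and 4 their highest level there, compared with 35.9% and 35.2% of all kept genes. Jund was highest at number 2. The median span between library numbers was 0.61 over the 8 members and 0.29 over all kept genes, and the median span between lines was 0.32 and 0.27. The span between numbers exceeded that between lines for 6 of 8 members, compared with 53.5% of all kept genes. Fosl1 and Junb were the exceptions. The dates themselves, and what else differed between the numbers, are not given in the sources used here.

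**Figure D4:**
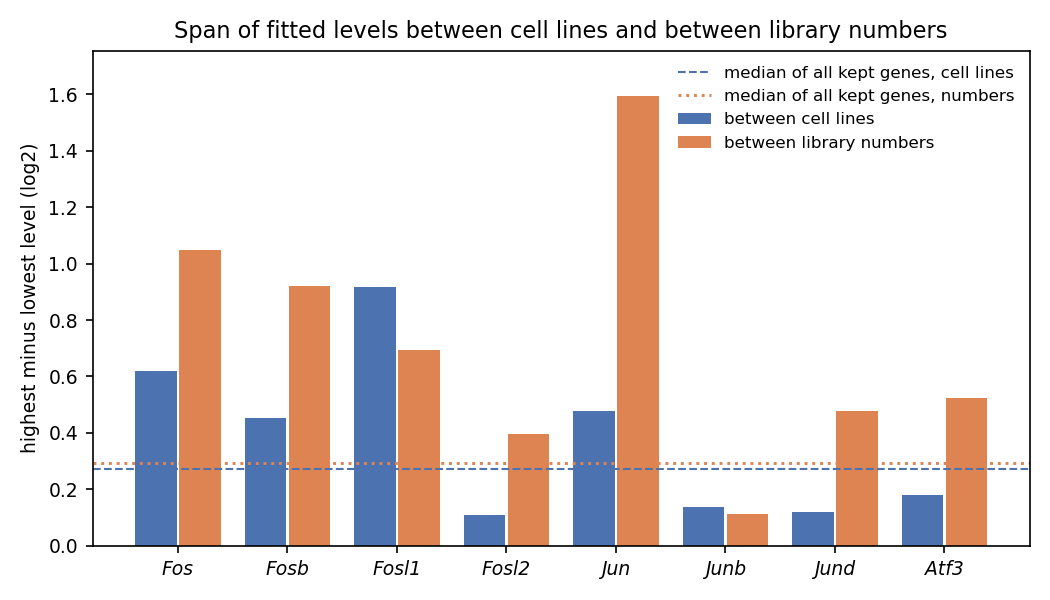
Highest minus lowest fitted level on the log2 scale (y axis) between the 3 lines (blue) and between the 3 library numbers (orange) for the 8 AP-1 genes, without error bars as these are fitted terms. Lines mark the medians of all kept genes. The orange bar is the taller one for 6 genes, with the tallest for Jun at 1.60. The terms for line and number may be shrunken by unlike amounts.

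Other proteins that take part in AP-1 signalling were described by 3 lists. The first held 15 other bZIP proteins that can pair with FOS, JUN, ATF3 or BATF, of which 11 or 12 were tested. In GFP-TTP-AA against GFP 1 of 12 rose, namely Jdp2, a repressor that pairs with JUN proteins, from 42.5 to 74.5 (log2 fold change 0.81, SE 0.249, adjusted p = 0.0406). Jdp2 rose in GFP-TTP-AA against GFP-TTP as well, from a level of 37.2 (log2 fold change 1.00, SE 0.249, adjusted p = 0.00163), again as 1 of 12. The median log2 fold change of the list was -0.08, 0.05 and 0.12.

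The second list held 16 kinases and transcription factors that induce or activate AP-1, such as the JNK and ERK kinases and the serum response factor with its ELK partners. Of 15 genes tested, 0 passed the Wald test with the DESeq2 standard errors in each of the 3 comparisons, against 2.09%, 3.03% and 10.2% of all genes. An unadjusted p under 0.05 was found for 2, 1 and 1 of the 15, against 11.3%, 14.2% and 22.1% of all genes. Their median log2 fold change was -0.07, 0.01 and 0.03.

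The third list held 20 genes taken here as targets of AP-1. Whether AP-1 controls them in these cells, or other factors do, was not tested. In GFP-TTP against GFP 1 of 16 tested rose and 0 fell. This was Timp1, an inhibitor of matrix metalloproteases, with levels of 7.79 in GFP and 24.3 in GFP-TTP cells (log2 fold change 1.64, SE 0.245, adjusted p = 8.93e-09). The change of Timp1 rests on low values, as its fitted mean was 14.9 and its GFP level lay below 10. In GFP-TTP-AA against GFP 1 of 17 rose and 1 fell. The ferritin heavy chain gene Fth1 rose from 13851 to 18838 (log2 fold change 0.44, SE 0.136, adjusted p = 0.0400), and the growth factor gene Hbegf fell from 33.6 to 15.4 (log2 fold change -1.12, SE 0.250, adjusted p = 0.000957). In GFP-TTP-AA against GFP-TTP 1 of 17 rose and 4 fell. Ezr, which encodes the membrane-cytoskeleton linker ezrin, rose by 0.76 on the log2 scale (SE 0.186, adjusted p = 0.00151). Hbegf changed by -1.29 (adjusted p = 1.44e-05), Timp1 by -0.97 (adjusted p = 0.00237), the cyclin gene Ccnd1 by -0.54 (adjusted p = 0.0407) and the heme oxygenase gene Hmox1 by -0.44 (adjusted p = 0.0456). The median log2 fold change of the list was 0.18, -0.02 and -0.02. The genes that passed went in both directions. Of all genes, 2.09%, 3.03% and 10.2% passed in these comparisons, and nothing particular to the lists is read from their counts.

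**Figure D5:**
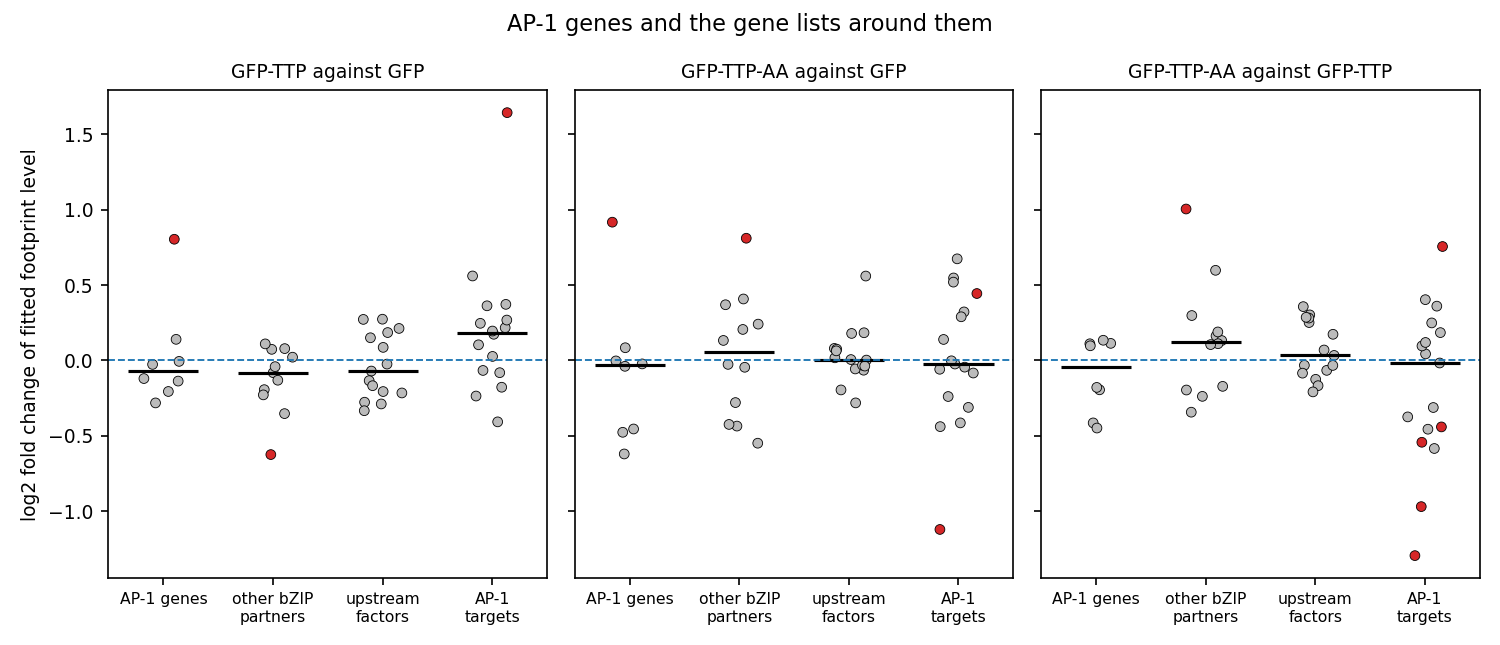
Log2 fold change of fitted footprint level (y axis) of the AP-1 genes and of the 3 lists (columns) in the 3 comparisons (panels), one point per gene tested, red where the adjusted p was under 0.05. Black lines are list medians and the dashed line is the median of all genes; the AP-1 targets reach from -1.29 to 1.64 over the panels.

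Finally, genes with the pair of fold changes over GFP most like those of a member were looked up among the 8439 genes whose fitted mean reached 50, as a description by Euclidean distance over 2 comparisons. Nearest to Fosl1 were Ppic, with log2 fold changes of 0.71 and 0.92 (distance 0.09), and Sema3c, with 0.70 and 0.78 (distance 0.17). Nearest to Jun, which had the next smallest adjusted p, were Ncs1, with -0.27 and -0.48 (distance 0.0079), and AA474408, with -0.27 and -0.47 (distance 0.013). Both comparisons share the GFP libraries.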

How the data were processed

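RiboSeq was performed by the authors on 9 libraries. Ribosome-protected fragments were prepared with the ARTseq kit and rRNA was depleted. The submitters' processing notes name Trim Galore, TopHat2 2.0.12, HTSeq and DESeq2 1.6.3, which the authors used, and the builds mm10 and GRCm38. Reads could be kept at more than 1 place in the mapping, and how the counting treated such reads is not given in the sources used here. Whether genes with close copies share or lose footprints is therefore not known.

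The deposited table used here holds a signal, namely fits of the authors' DESeq2 model (library date and condition), 1 per gene and library and not divided by the size factors. This was checked on the values. The log2 values equalled a condition term plus a library-number term up to a residual SD of 1.64e-15, and there were 0 zeros among 16932 lines, 11 of them repeated and 1 without a gene name. The authors' deposited comparison tables hold a log2 fold change, its SE on the log2 scale, and p-values with adjusted p-values. The SE was the error used here. The authors' fold changes served to recover the size factors, and their adjusted p-values were used in an alternative. Observed counts per library are not in these tables, and depth enters through the SE, of which the largest was 0.250.

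A level was the geometric mean over the 3 libraries of a line of the fitted value divided by its size factor, without a pseudocount. The log2 fold change was divided by the authors' SE (Wald test, two-sided, normal), and p was adjusted by the Benjamini-Hochberg method over genes whose fitted mean reached 10, with a threshold of 0.05. Intervals are 95%. GFP-TTP against GFP had 9938 tested genes, as the SE was missing for the others. Nothing in the labels ties libraries with equal numbers to a shared culture. The series describes 3 biological replicates per line. The RNASeq and iCLIP data were not used here.

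The members and all lists were chosen with earlier results of these data known. The text names all members, Zfp36, list genes past the threshold (up to 4 per list and comparison, with the smallest adjusted p), and the 2 genes nearest to Fosl1 and to Jun. Hmox1, Ccdc85b and Prdx2 fall outside this rule and were named after their values were seen. A result of the list of bZIP partners is not reported here. 3′UTRs were taken from the GENCODE vM21 transcript with the longest coding sequence. The steps were tested on simulated data. The simulated noise was drawn from the same SE that the test then used. It could therefore check the computation, but not whether the SE or the shrunken values are sound. Analyses used Python with numpy 2.4.6, pandas 2.3.3, scipy 1.17.1 and matplotlib 3.10.9.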

Additional observations from a re-analysis of the deposited data

How the results depend on the processing

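Each of the 24 results of the 8 AP-1 genes in the 3 comparisons was recomputed under 8 alternatives. These were no filter on low values, a fitted mean of at least 50, a pseudocount of 10, scaling to summed fitted values, centring on the median of all genes, subtraction of the chromosome median, adjustment over the 3 comparisons together, and the authors' adjusted p. All 189 values that could be computed kept their direction and their side of the threshold. Fosb has none for a fitted mean of at least 50, which it does not reach. The changes of the filter, the joint adjustment and the authors' adjusted p left the fold change itself as it was. In these alternatives only the side of the threshold could move, not the direction. Centring and scaling to sums shifted every gene of a comparison by the same small amount, and so tested little. Fos in GFP-TTP-AA against GFP, for example, went from -0.620 to -0.626 and -0.635. Over all 8 alternatives Fosl1 ranged from 0.63 to 0.80 in GFP-TTP against GFP (adjusted p from 0.000344 to 0.0232). It ranged from 0.81 to 0.92 in GFP-TTP-AA against GFP (adjusted p from 1.80e-05 to 0.000528). In GFP-TTP-AA against GFP, the adjusted p ranged from 0.0643 to 0.109 for Jun and from 0.0617 to 0.202 for Fos. The count of all genes past the threshold in that comparison was 199 with a pseudocount of 10 instead of 306. The pseudocount draws low levels together, and the SE was kept. No paired analysis was possible because the deposited values are fitted and hold no residual spread to refit. The tests already carry a term for the library number, since the authors' SE come from a model with the library date, which followed the number, and a fit without this term could not be run. Leaving out single libraries was not run for the same reason. Depth enters only through the SE, and how far it sets the SE of a single gene was not tested.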
